A study of Mus musculus with 12 samples.

Results

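The unfolded protein response and the integrated stress response were followed through 38 genes, of 53465 listed, in bone marrow-derived dendritic cells (BM-DCs) of the mouse. The genes were chosen by name, with earlier results of these data known. They comprise 14 chaperones and folding enzymes of the endoplasmic reticulum (ER), 7 genes of ER-associated degradation and 7 sensors and transcription factors. The others are 5 targets of the transcription factors ATF4 and CHOP, called feedback genes, and 5 ATF4 targets that supply amino acids and one-carbon units. The name feedback genes is a label. Such an action is described below for Trib3 and Ppp1r15a, and not for Chac1, Ddit4 or Vldlr. RNA was sequenced from 4 groups of n = 3 libraries each. All cells came from wild type C57BL/6 animals at post-natal week 12 and were grown from bone marrow progenitors for 9 days with the growth factor GM-CSF. Ctrl was left untreated. The group LPS received lipopolysaccharide, a component of the outer membrane of bacteria used here for maturation, at 100 ng/ml for 18 h. The group Aβ received oligomers of the human peptide Aβ1-42 at 0.5 μM for 4 days, from day 8 of culture. The group Aβ+LPS received both agents, with the oligomers started before LPS. How 4 days from day 8 go with 9 days of culture is not given in the sources used here. Exposure to Aβ thus lasted longer than exposure to LPS, so that agent and duration cannot be told apart between these groups. No library with a scrambled peptide was analysed here. Nothing in the labels says that replicates came from separate animals or cultures, and p-values measure only the spread between these libraries.

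When unfolded proteins fill the ER, 3 membrane sensors respond. IRE1 (the product of Ern1) splices Xbp1 mRNA, ATF6 is cleaved to a transcription factor, and PERK (the product of Eif2ak3) phosphorylates the initiation factor eIF2α, which slows translation. XBP1 and ATF6 raise chaperones and degradation genes. Phosphorylated eIF2α favours translation of ATF4, which raises CHOP (the product of Ddit3), feedback genes and genes of amino acid supply. Other kinases, among them GCN2 for amino acid shortage, also phosphorylate eIF2α, and that wider program is the integrated stress response. Dendritic cells are known for constant activity of IRE1 and XBP1. Counts per gene measure the amount of mRNA, and neither Xbp1 splicing nor eIF2α phosphorylation was measured by them.

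The deposited values are normalized counts, reads per gene divided by a size factor of the library. Libraries held 23415609 to 29690965 reads in genes. Of all genes, 14324 reached a group mean of 10 normalized counts somewhere and were tested with limma on log2(normalized count + 1), and a gene was called at an adjusted p under 0.05 over those genes. All 38 members passed the filter, 36 of them in every group. Derl3 and Vldlr were under it in Ctrl and passed through the groups where they are higher, so that a difference was built into their entry. The log2 fold changes below are on the log2(normalized count + 1) scale. Of 10 dendritic markers, Itgax (which encodes CD11c) stood at 30973 to 31468 normalized counts in Ctrl, Cd74 at 42750 to 44527 and H2-Ab1 at 17518 to 18017. Irf8 stood at 2057.5 to 2281.5 there, Batf3 at 380 to 403 and Clec9a at 289 to 355. Others were lower in Ctrl, with Flt3 at 1.01 to 9.15, Dpp4 at 25.2 to 38.5, Ccr7 at 73.0 to 101 and Zbtb46 at 100 to 110. The 10 summed to 3371 to 3984 CPM over all libraries, mostly from Itgax, Cd74 and H2-Ab1. CPM is a count scaled to the reads in genes of its library. Macrophage genes were also high, with Csf1r at 24852 to 27263 and C1qb at 5149 to 5297 normalized counts in Ctrl. In bulk RNA, fewer cells of a type and less RNA per cell cannot be told apart.

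Most members changed with either agent, and no member was called when LPS was added to cells with Aβ. These comparisons ask how oligomeric Aβ altered the mRNA levels of BM-DCs with and without maturation by LPS. In LPS vs. Ctrl, 15 members were higher and 15 lower, 30 of 38, beside 46.3% of all genes tested. In Aβ vs. Ctrl, 18 were higher and 12 lower, again 30 of 38, beside 68.8% of all genes. Without Derl3 and Vldlr, these counts were 13 higher and 15 lower for LPS and 17 higher and 12 lower for Aβ, of 36. In Aβ+LPS vs. LPS, 22 were higher and 4 lower, 26 of 38, beside 56.1%. In Aβ+LPS vs. Aβ, limma called 0 members, beside 0.14% of all genes (20 of 14324), and edgeR and DESeq2, the latter with an adjusted p for 37 members, called 0 as well. At an unadjusted p under 0.05, each of the 3 tools had 1 member there, Atf5. The median over all genes tested was 0.0045 for LPS vs. Ctrl, 0.022 for Aβ vs. Ctrl and 0.013 for Aβ+LPS vs. LPS on the log2 scale. With libraries scaled to their total count instead, these medians moved to 0.12, 0.12 and −0.012, the share of calls that were higher over all genes went from 51.3 to 71.3%, from 51.1 to 59.3% and from 49.6 to 46.2%, and members were called 20 higher and 11 lower, 20 and 9, and 22 and 5.

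**Figure D1:**
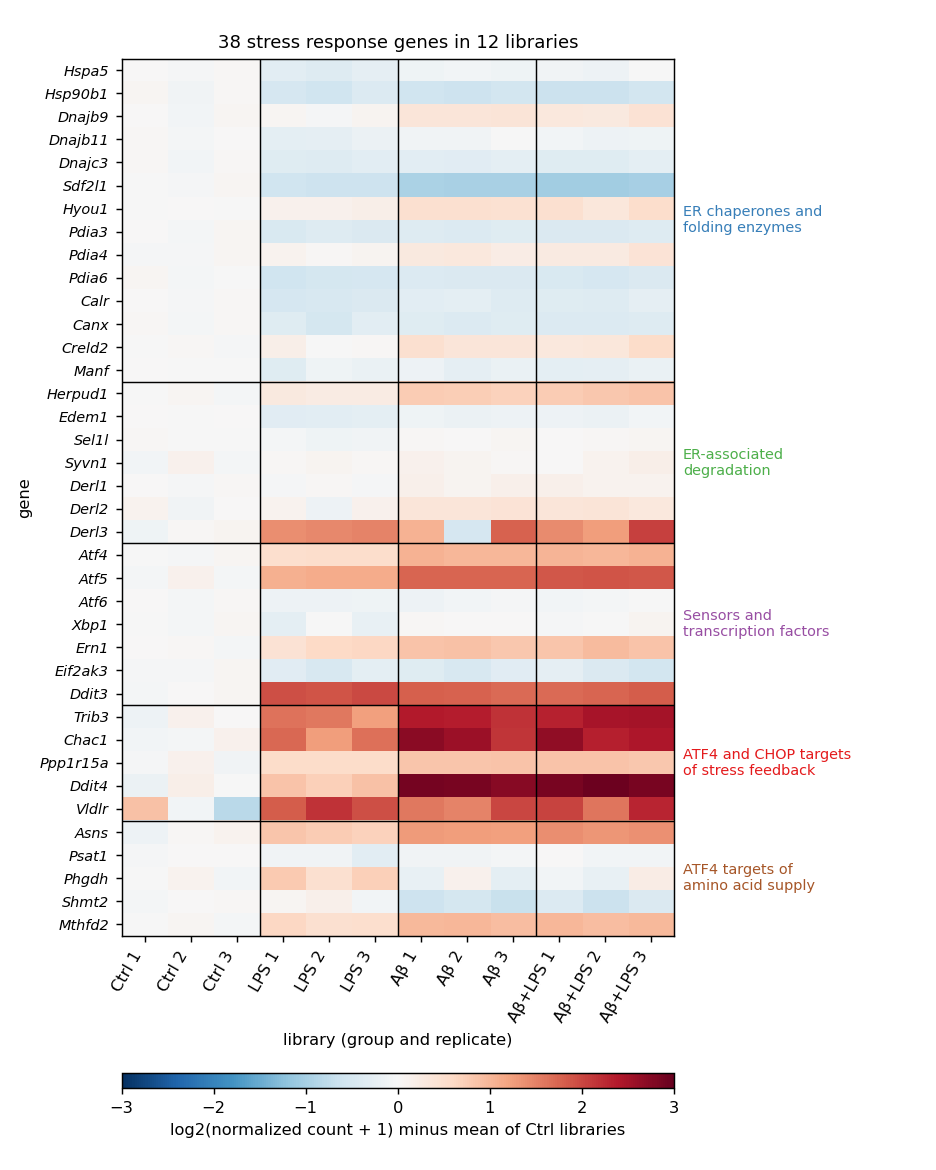
Level of each of the 38 members (rows, ordered by role) in each of the 12 libraries (columns), as log2(normalized count + 1) minus the mean of the 3 Ctrl libraries, from blue (lower) to red (higher). The chaperones are mostly pale blue outside Ctrl, Ddit3 and the feedback genes are red in all 9 treated libraries, and the columns of Aβ and Aβ+LPS look alike.

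The groups were mostly separate. The 3 libraries of either group did not overlap for 30 of 38 members for LPS vs. Ctrl, 31 for Aβ vs. Ctrl and 28 for Aβ+LPS vs. LPS, where 46.3, 68.8 and 56.1% of all genes were called and 52.7, 72.3 and 60.9% of all genes did not overlap. In Aβ+LPS vs. Aβ they did not overlap for 4 members, none of which passed the test, beside 13.6% of all genes without overlap and 0.14% called.

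Most ER chaperones were lower with either agent, by modest amounts. In LPS vs. Ctrl, 10 of 14 fell and 1, Hyou1, rose, with a median log2 fold change of −0.34. In Aβ vs. Ctrl, 9 fell and 4 rose, with a median of −0.26. Both comparisons use the same Ctrl libraries. Called were 78.6% of the 14 with LPS and 92.9% with Aβ, beside 46.3 and 68.8% of all genes tested. With total count scaling the numbers were 9 lower and 4 higher for LPS (median −0.23), where Creld2, Pdia4 and Dnajb9 were also called higher, and 7 lower and 4 higher for Aβ (median −0.17).

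The core of the folding machinery was abundant in all groups. Per kilobase of exon, Calr, which encodes the lectin chaperone calreticulin, stood at a mean of 12031 normalized counts in Ctrl, Hspa5 at 7280.3, Hsp90b1 at 6669.9, Pdia3 at 6387 and Canx at 4117, while Creld2 and Hyou1 stood at 498 and 528. Hspa5 (chr2:34771970-34777547, GRCm38) encodes BiP, the main Hsp70 of the ER and the partner that holds the sensors inactive. Its level was 30979, 29851 and 31535 normalized counts in Ctrl, 24841, 23632 and 25329 in LPS, 28093, 29224 and 28161 in Aβ and 28461, 27628 and 30436 in Aβ+LPS. The LPS libraries were lowest and apart from all others, and the Aβ libraries lay just under those of Ctrl, while the Aβ+LPS libraries overlapped both. The log2 fold change was −0.32, SE 0.045, adjusted p = 3.5e-06 in LPS vs. Ctrl and −0.11, SE 0.045, adjusted p = 0.031 in Aβ vs. Ctrl. The latter call was lost without Ctrl replicate 1 (adjusted p = 0.078), without Ctrl replicate 3 (0.12), without Aβ replicate 1 (0.096), without Aβ replicate 3 (0.081), with no filter (0.070) and with total count scaling (0.70).

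Hsp90b1, which encodes the ER Hsp90 GRP94, fell further. Its level was 28115, 25132 and 27432 normalized counts in Ctrl, 18994, 17669.5 and 20074 in LPS, 17617, 17369.5 and 18247 in Aβ and 17084, 17060.2 and 18437 in Aβ+LPS. Every Ctrl library was above all 9 others, and the other groups overlapped one another. The log2 fold change was −0.51, SE 0.051, adjusted p = 3.9e-08 in LPS vs. Ctrl and −0.60, SE 0.051, adjusted p = 8.7e-10 in Aβ vs. Ctrl.

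Calr had 34686, 33903 and 35357 normalized counts in Ctrl, 24598, 24846 and 25808 in LPS, 27884, 28416 and 26661 in Aβ and 26827, 26563 and 28583 in Aβ+LPS. Ctrl was highest, LPS lowest, and both groups with Aβ lay between them without overlap with either. The log2 fold change was −0.47, SE 0.043, adjusted p = 8.9e-09 with LPS and −0.33, SE 0.043, adjusted p = 6.8e-07 with Aβ. Canx, the membrane-bound partner of calreticulin, had 19703, 18479 and 19786 normalized counts in Ctrl, 15128, 13461 and 15463 in LPS, 15098, 14464 and 15126 in Aβ and 14512, 14548 and 14818 in Aβ+LPS. All Ctrl libraries were above all others, which overlapped, and the log2 fold changes were −0.40 and −0.37 (SE 0.048).

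Sdf2l1, a component of an ER chaperone complex with BiP, changed furthest among chaperones in both comparisons. It had 2767, 2704 and 2877 normalized counts in Ctrl, 1846, 1819 and 1795 in LPS, 1447, 1414 and 1406 in Aβ and 1346, 1341 and 1398 in Aβ+LPS. The groups stepped down from Ctrl to LPS to Aβ without overlap, with log2 fold changes of −0.61, SE 0.045, adjusted p = 2.3e-10 and −0.97, SE 0.045, adjusted p = 2e-14. Aβ+LPS lay just under Aβ, again without overlap, but that difference of −0.063 did not pass the test (adjusted p = 0.91). Pdia6, a protein disulfide isomerase, had 8433, 7761 and 8005 normalized counts in Ctrl, 5325, 5601 and 5649.7 in LPS, 6070.3, 5935 and 6011 in Aβ and 5828, 5667 and 5968 in Aβ+LPS. Ctrl was apart above the other groups, and the log2 fold changes were −0.55 with LPS and −0.42 with Aβ (SE 0.041, adjusted p = 4.4e-10 and 7.4e-09).

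Pdia3, the isomerase that works with calreticulin and calnexin, fell by similar amounts, with log2 fold changes of −0.42 and −0.39. Dnajc3, a J protein that also inhibits eIF2α kinases, had −0.36 and −0.32, and Manf, a secreted ER stress factor, −0.23 and −0.21. Dnajb11, a J protein of BiP, fell with LPS (−0.24), while its value of −0.077 with Aβ did not pass the test (adjusted p = 0.13).

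A smaller set of chaperones rose with Aβ. Hyou1, a large Hsp110-type chaperone that exchanges the nucleotide of BiP, had 3817, 3874 and 3773 normalized counts in Ctrl, 4174, 4211 and 4292 in LPS, 5303, 5367 and 5283 in Aβ and 5345, 4870.4 and 5483 in Aβ+LPS. The 3 LPS libraries were above those of Ctrl and the Aβ libraries above those of LPS, with log2 fold changes of 0.15, SE 0.043, adjusted p = 0.0089 and 0.48, SE 0.043, adjusted p = 2.3e-09 over Ctrl. Creld2, an ER stress-inducible isomerase-like protein, rose by 0.40 with Aβ, Dnajb9, a J protein that restrains IRE1, by 0.36 and Pdia4, another disulfide isomerase, by 0.27. With LPS these genes had 0.072, 0.035 and 0.07, none of which passed the test under the authors' scaling.

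Some promoters of the chaperones hold a sequence known from this program. RefSeq promoters (GRCm38.p6, 250 bases before to 50 after a gene start) were matched for 34 of 38 members, all but Hyou1, Manf, Derl1 and Atf6. The ER stress response element ERSE, which ATF6 and XBP1 are known to bind together with NF-Y, was searched on both strands as CCAAT and CCACG with 9 bases between. It stood in 7 of 12 chaperone promoters (Hspa5, Hsp90b1, Dnajc3, Pdia6, Calr, Canx and Creld2), in those of Syvn1 and Derl3, and in 0 of the other members, against 37 of 27025 genes (0.137%) with a promoter in the table. The members were chosen by name as genes of this response, so that the shares of this and the elements below describe the list and test nothing. Of these 7 chaperones, 6 fell with LPS and 1, Creld2, did not pass the test. Among chaperones whose promoters lacked the element, Dnajb11, Sdf2l1 and Pdia3 also fell with LPS, and Dnajb9 and Pdia4 did not pass the test. The stretches of Hspa5 (chr2:34772020-34772048, plus strand), Hsp90b1 (chr10:86705528-86705661, minus strand) and Calr (chr8:84847070-84847098, minus strand) are shown because these are abundant chaperones that fell with LPS while holding the element, whose full span is in capitals and reads from CCAAT to CCACG or, on the other strand, from CGTGG to ATTGG:
Hspa5: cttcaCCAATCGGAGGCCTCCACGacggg
Hsp90b1: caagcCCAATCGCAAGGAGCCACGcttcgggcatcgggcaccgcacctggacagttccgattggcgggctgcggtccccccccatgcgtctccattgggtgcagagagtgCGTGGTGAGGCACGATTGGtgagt
Calr: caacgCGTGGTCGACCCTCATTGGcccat

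Hsp90b1 carried the element at 2 places, 1 on each strand. A match is a description of letters and no proof of binding. The stretch of Hspa5 lies inside the gene as GENCODE draws it, since its gene start is upstream of the RefSeq one used here.

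Among genes of ER-associated degradation, which removes misfolded proteins to the proteasome, 2 were called higher and 1 lower of 7 with LPS, and 3 rose and 1 fell with Aβ. These calls were 42.9 and 57.1% of the 7, under the 46.3 and 68.8% of all genes tested. Without Derl3, 1 rose and 1 fell of 6 with LPS, and the calls with Aβ were as before. The medians over all 7 were 0.026 and 0.13 on the log2 scale, and the first turned to −0.025 without Ctrl replicate 2 and −0.0038 without LPS replicate 3. With total count scaling the counts were 4 and 1, and 5 and 0. Herpud1, a membrane scaffold of the degradation complex, rose furthest among the 6 genes over the filter in Ctrl. Its level was 718, 754 and 689 normalized counts in Ctrl, 879, 847 and 847 in LPS, 1216, 1208 and 1167 in Aβ and 1223, 1255 and 1293 in Aβ+LPS. Ctrl, LPS and the groups with Aβ followed each other upward without overlap, with log2 fold changes of 0.25, SE 0.053, adjusted p = 0.00053 and 0.73, SE 0.053, adjusted p = 6e-11 over Ctrl.

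The Herpud1 promoter was the only 1 of the 34 to hold both an ER stress element and a CARE, the C/EBP-ATF element through which ATF4 acts. ERSE-II was searched as ATTGG and CCACG with 1 base between, and CARE as TGATGNAA, both on either strand. ERSE-II stood in 2 of 34 member promoters (Herpud1 and Dnajb11) against 12 of 27025 (0.0444%), and CARE in 5 (Herpud1, Trib3, Chac1, Vldlr and Asns) against 1219 of 27025 (4.51%). A further element bound by XBP1 and ATF6, the UPRE searched as TGACGTGG, stood in 0 of 34 against 0.714% of all. The stretch at chr8:94386307-94386397 (plus strand) has the CARE, read on the other strand, and then the ERSE-II in capitals:
Herpud1: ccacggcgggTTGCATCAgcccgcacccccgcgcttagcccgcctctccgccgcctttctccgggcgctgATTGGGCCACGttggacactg

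Edem1, a lectin that marks glycoproteins for degradation, went the other way. It had 7368, 7324 and 7404 normalized counts in Ctrl, 5802, 5940.1 and 5999.7 in LPS, 6756, 6486 and 6669.5 in Aβ and 6653, 6529 and 6918 in Aβ+LPS. LPS was lowest, Ctrl highest, and the groups with Aβ lay between without overlap with either, with log2 fold changes of −0.32, SE 0.038, adjusted p = 5.2e-07 and −0.15, SE 0.038, adjusted p = 0.0015. With total count scaling the latter was −0.057 and no longer called (adjusted p = 0.17). Derl2, a derlin of the degradation channel, had 2165, 1886 and 2034 normalized counts in Ctrl, 2163, 1824 and 2224 in LPS, 2589, 2597 and 2677 in Aβ and 2613, 2659 and 2536 in Aβ+LPS. Every library with Aβ, alone or with LPS, was above every library without, while Ctrl and LPS overlapped, and the log2 fold change in Aβ vs. Ctrl was 0.37, SE 0.062, adjusted p = 1.8e-05. Derl1, a related derlin, rose by 0.13 with Aβ. In LPS vs. Ctrl its value was −0.011 and did not pass the test, and with total count scaling it was 0.10 and was called higher.

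Derl3, a derlin known from secretory cells such as plasma cells, was at low counts. It had 6.08, 6.86 and 7.16 normalized counts in Ctrl, 19.3, 19.9 and 20.5 in LPS, 14.8, 4.43 and 25.3 in Aβ and 19.6, 17.2 and 30.6 in Aβ+LPS. The LPS libraries were close together and above those of Ctrl, while the Aβ libraries spanned both groups. The log2 fold changes over Ctrl were 1.44 with LPS and 0.77 with Aβ, the latter 1.41 without Aβ replicate 2, and are given as a description, since the gene entered through the groups where it is higher. Genes of plasma cells and B cells moved as well. The 8 plasma cell markers summed to 406 to 414 CPM in Ctrl, 488 to 532 in LPS, 856 to 870.0 in Aβ and 888 to 917 in Aβ+LPS, of which Slamf7 and Sdc1, which myeloid cells also express, made up the most. Of the others, Jchain stood at 44.6 to 134 normalized counts in Ctrl and 236 to 621 in Aβ+LPS, Mzb1 at 4.05 to 6.86 and 55.9 to 79.6, and Tnfrsf17 had means of 2.45 and 0. The 8 B cell markers summed to 14.6 to 21.3 CPM in Ctrl, 24.5 to 30.8 in LPS, 37.6 to 48.0 in Aβ and 35.7 to 99.6 in Aβ+LPS. Most of that came from Ighm, at 388 to 574 normalized counts in Ctrl and 832 to 2520 in Aβ+LPS. Ebf1 was at a mean of 0 in Ctrl. The part of plasma cells and B cells in Derl3 and other members was not tested.

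Sel1l and Syvn1, which encode the adaptor and the ubiquitin ligase at the core of the degradation complex, did not pass the test in either comparison, with log2 fold changes of −0.09 and 0.043 for LPS and 0.035 and 0.081 for Aβ. For LPS, Sel1l was close to the threshold (adjusted p = 0.054) and was called lower by DESeq2 (adjusted p = 0.041), without LPS replicate 1 (0.042) and with a minimum mean of 50 normalized counts (0.047), while Syvn1 was called higher with total count scaling (0.030).

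**Figure D2:**
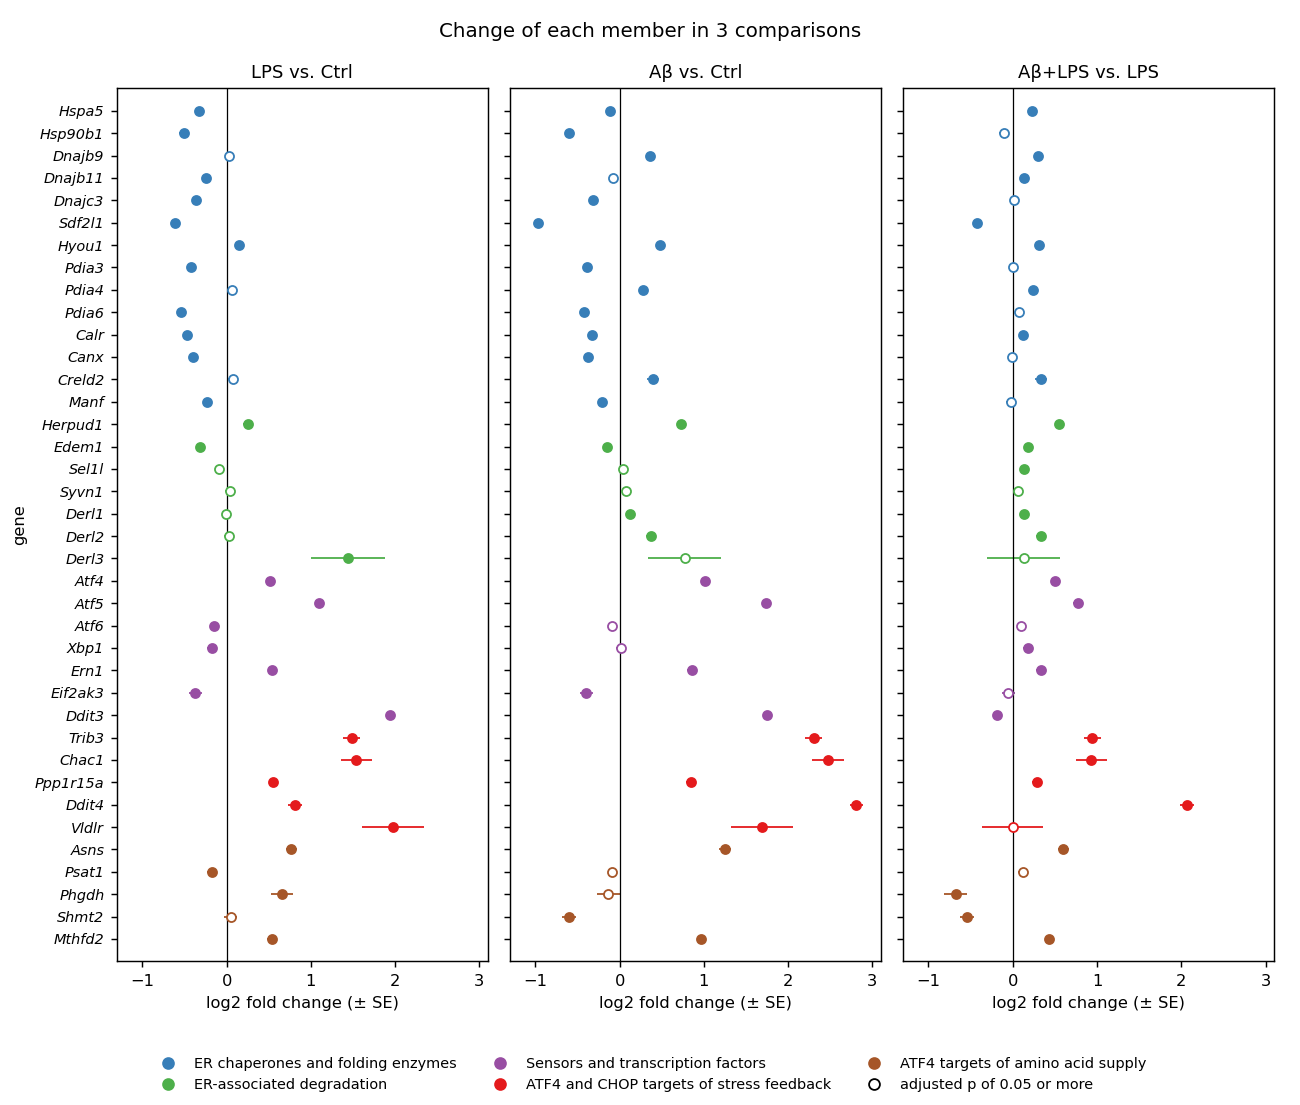
Log2 fold change of each member (points, with bars of 1 standard error) in LPS vs. Ctrl, Aβ vs. Ctrl and Aβ+LPS vs. LPS, coloured by role, with open points where the adjusted p was 0.05 or more. Chaperones lie mostly left of 0 in the comparisons with Ctrl, all 5 feedback genes lie right of 0 there, and the genes of amino acid supply lie on both sides. Derl3 and Vldlr were under the filter in Ctrl and entered through the groups where they are higher.

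The sensors and transcription factors divided. With LPS, 4 of 7 rose and 3 fell, and with Aβ, 4 rose and 1 fell, with medians of 0.52 and 0.85 on the log2 scale. Called were 100 and 71.4% of the 7, beside 46.3 and 68.8% of all genes tested. The genes that rose in both were Ddit3, Atf5, Atf4 and Ern1. Ddit3 (chr10:127290774-127296288) encodes CHOP, a transcription factor known for its part in cell death under prolonged ER stress. Its level was 878, 934 and 951 normalized counts in Ctrl, 3525, 3412 and 3662 in LPS, 3169, 3131 and 2976 in Aβ and 2978, 3098 and 3266 in Aβ+LPS. The Ctrl libraries were far below all others, and LPS was above both groups with Aβ without overlap. The fold changes over Ctrl were 3.83-fold with LPS (1.94, SE 0.049, adjusted p = 2.3e-18) and 3.36-fold with Aβ (1.75, SE 0.049, adjusted p = 2.7e-18).

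Atf4, the transcription factor that phosphorylated eIF2α favours, had 3022, 2984 and 3182 normalized counts in Ctrl, 4344, 4389 and 4412 in LPS, 6259, 6081 and 6123 in Aβ and 6245, 6141 and 6268 in Aβ+LPS. Ctrl, LPS and the groups with Aβ formed 3 steps, while Aβ and Aβ+LPS overlapped. The log2 fold change was 0.52, SE 0.039, adjusted p = 3.4e-10 with LPS and 1.01, SE 0.039, adjusted p = 7.7e-16 with Aβ, a 2.01-fold change. Atf5, a related factor translated in a similar way, had 439.9, 495 and 437 normalized counts in Ctrl, 959, 991 and 987 in LPS, 1522, 1540.3 and 1522 in Aβ and 1670.1, 1683 and 1664 in Aβ+LPS. The 4 groups rose in order without overlap, by 1.10, SE 0.055, adjusted p = 4.1e-13 in LPS and 1.74, SE 0.055, adjusted p = 2.4e-17 in Aβ over Ctrl. The step from Aβ to Aβ+LPS, 0.13, did not pass the test (adjusted p = 0.68).

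The sensor gene Ern1 rose and Eif2ak3 fell. Ern1 had 1022, 1051 and 986 normalized counts in Ctrl, 1371, 1531 and 1567 in LPS, 1849, 1884 and 1796 in Aβ and 1813, 1978 and 1835 in Aβ+LPS. All LPS libraries were above Ctrl and all libraries with Aβ above those of LPS, with log2 fold changes of 0.54, SE 0.055, adjusted p = 4.4e-08 and 0.85, SE 0.055, adjusted p = 7.8e-12 over Ctrl. Eif2ak3 had 765, 761 and 818 normalized counts in Ctrl, 614, 563 and 639 in LPS, 603, 556 and 621 in Aβ and 644, 578 and 529.6 in Aβ+LPS. Every Ctrl library was above all 9 treated ones, which overlapped, and the log2 fold changes were −0.37, SE 0.075, adjusted p = 0.00037 and −0.40, SE 0.075, adjusted p = 8.4e-05.

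Atf6 and Xbp1 changed little at the level of the gene. Atf6 had 2831, 2723 and 2906 normalized counts in Ctrl, 2540.4, 2518 and 2591 in LPS, 2554, 2649 and 2739 in Aβ and 2671, 2707 and 2798 in Aβ+LPS. LPS lay under Ctrl without overlap (−0.14, SE 0.043, adjusted p = 0.0093), and Aβ overlapped both. The call in LPS vs. Ctrl was lost without Ctrl replicate 3 (−0.12, adjusted p = 0.0535) and with total count scaling (−0.031, adjusted p = 0.56). In Aβ vs. Ctrl its value of −0.091 did not pass the test (adjusted p = 0.068) and did so without Ctrl replicate 2 (0.038) or without Aβ replicate 3 (0.039).

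Xbp1, whose spliced mRNA encodes the active factor, had 3033, 2922 and 3158 normalized counts in Ctrl, 2495, 3013 and 2588 in LPS, 3096, 3037 and 3068 in Aβ and 2946, 3022 and 3196 in Aβ+LPS. LPS replicate 2 lay within the range of Ctrl, and the Aβ libraries overlapped those of Ctrl. The log2 fold change with LPS was −0.17, SE 0.057, adjusted p = 0.015, and it was not called without Ctrl replicate 3 (adjusted p = 0.074), without LPS replicate 1 (0.115), without LPS replicate 3 (0.063), with only the compared groups in the fit (0.0685) or with total count scaling (0.40). With Aβ it was 0.015 (adjusted p = 0.83).

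Of the feedback genes, the 4 over the filter in Ctrl rose with LPS and rose with Aβ, with medians of 1.15 and 2.39 on the log2 scale. Of all genes tested, 46.3 and 68.8% were called either way. With Vldlr, which was under the filter in Ctrl, the medians over 5 genes were 1.48 and 2.30. Ddit4 (chr10:59949669-59951834), an inhibitor of the growth kinase mTORC1, rose furthest with Aβ. Its level was 167, 214 and 186 normalized counts in Ctrl, 339.8, 308 and 348 in LPS, 1379, 1356 and 1245 in Aβ and 1362, 1461 and 1360.1 in Aβ+LPS. LPS was above Ctrl, and both groups with Aβ were well above LPS. The change over Ctrl was 7.01-fold with Aβ (2.81, SE 0.081, adjusted p = 5.2e-18) and 1.76-fold with LPS (0.81, SE 0.081, adjusted p = 3.5e-08).

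Trib3, a pseudokinase that restrains ATF4 and CHOP, had 117, 141 and 131 normalized counts in Ctrl, 401, 390.2 and 304 in LPS, 675, 667 and 582 in Aβ and 647, 715 and 737 in Aβ+LPS. The order was again Ctrl, LPS and the groups with Aβ, without overlap between these steps, and the log2 fold changes were 1.48, SE 0.10, adjusted p = 1e-10 and 2.30, SE 0.10, adjusted p = 1.1e-14 over Ctrl. Chac1, an enzyme that breaks down glutathione, had 20.3, 20.6 and 23.5 normalized counts in Ctrl, 72.4, 52.6 and 69.2 in LPS, 146, 132 and 98.1 in Aβ and 139.9, 112 and 119 in Aβ+LPS. It followed the same order, with log2 fold changes of 1.54, SE 0.19, adjusted p = 5.8e-07 and 2.47, SE 0.19, adjusted p = 1e-10. Ppp1r15a, which encodes the phosphatase subunit GADD34 that reverses eIF2α phosphorylation, had 1434, 1598 and 1360.1 normalized counts in Ctrl, 2139.8, 2138 and 2141 in LPS, 2603, 2614 and 2636 in Aβ and 2629, 2635 and 2557 in Aβ+LPS. It showed the same steps at smaller size, 0.55 and 0.84 on the log2 scale (SE 0.05).

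Vldlr, the very low density lipoprotein receptor, was at low counts, with 12.2, 5.72 and 3.07 normalized counts in Ctrl, 24.1, 30.8 and 26.3 in LPS, 20.4, 18.8 and 27.3 in Aβ and 28.0, 20.7 and 33.7 in Aβ+LPS. The Ctrl libraries spread widely but lay under all 9 others, which overlapped, and the log2 fold changes of 1.97 and 1.69 are again a description. Of the 5 feedback promoters, 3 held a CARE (Trib3, Chac1 and Vldlr, in Trib3 after the gene start), as did Asns among the 5 genes of amino acid supply, beside 4.51% of all genes. The stretches of Chac1 (chr2:119351039-119351066, plus strand), Vldlr (chr19:27216810-27216837, plus strand) and Asns (chr6:7693215-7693242, minus strand) are shown because Chac1 and Asns rose with either agent and Vldlr had its lowest libraries in Ctrl, with the element in capitals, read on the other strand in Chac1 and Vldlr:
Chac1: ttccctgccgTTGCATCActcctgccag
Vldlr: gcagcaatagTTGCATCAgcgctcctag
Asns: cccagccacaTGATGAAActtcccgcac

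Chac1, Vldlr and Herpud1 held the same 8 letters. The stretches of Vldlr and Asns lie inside the genes as GENCODE draws them. Psat1, Phgdh, Shmt2 and Mthfd2 had no CARE of these letters in the window, and so did Atf4, Atf5, Ddit3, Ppp1r15a and Ddit4, which says nothing of elements elsewhere.

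**Figure D3:**
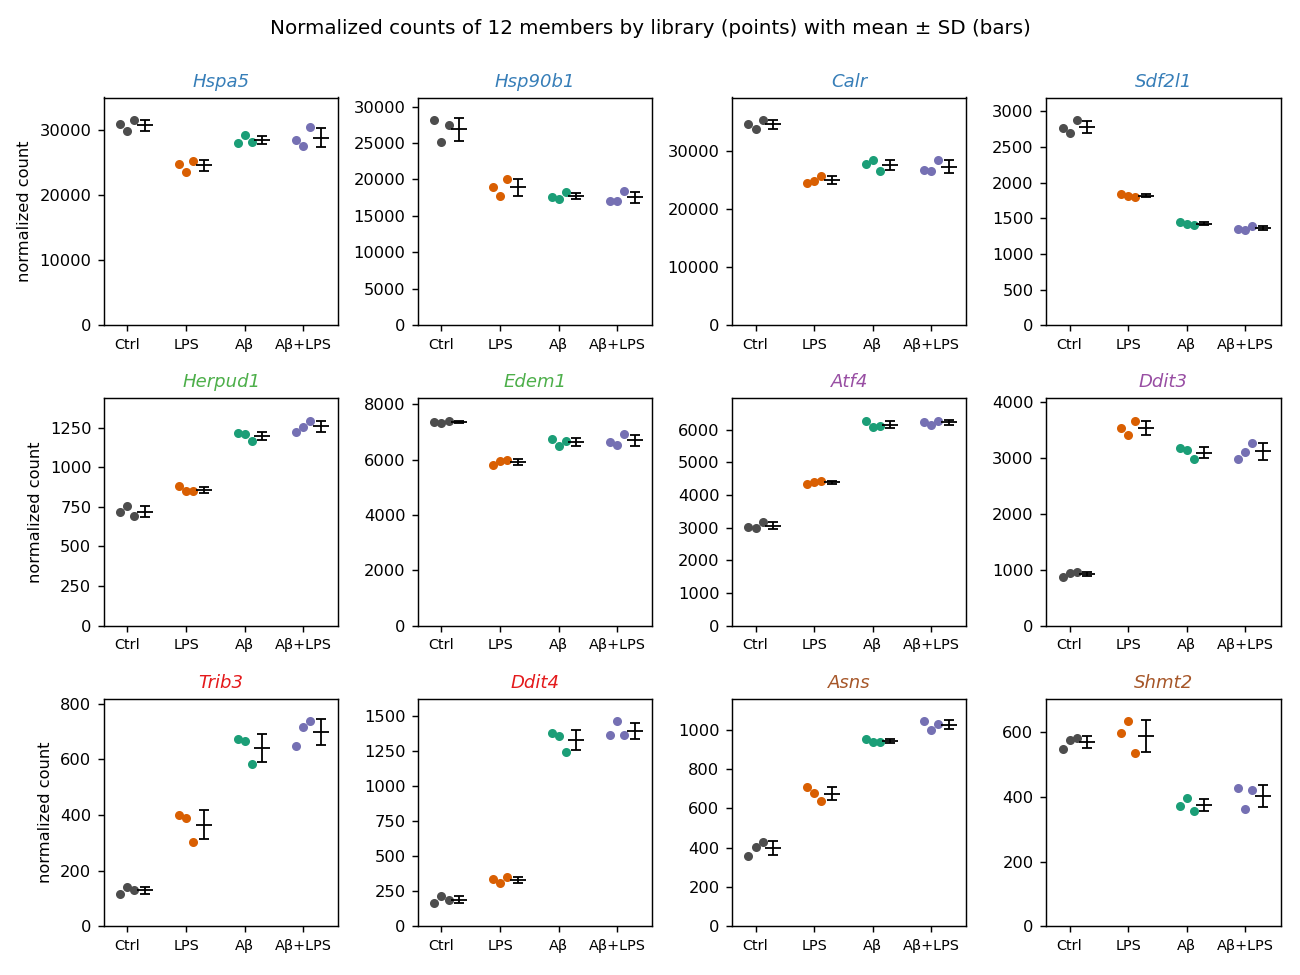
Normalized counts (vertical axis, from 0) of 12 members in the 3 libraries of each group (points), with the mean and SD of the group (bars) beside them. Sdf2l1 steps down from Ctrl to LPS to Aβ while Atf4, Trib3 and Asns step up, Ddit3 is highest in LPS, and Shmt2 is lower only in the groups with Aβ.

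The 5 genes of amino acid supply did not move as a set. With LPS, 3 rose and 1 fell (median 0.53). With Aβ, 2 rose and 1 fell (median −0.086, and 0.0077 with total count scaling). Called were 80% of the 5 with LPS and 60% with Aβ, beside 46.3 and 68.8% of all genes tested. Asns, the asparagine synthetase, had 357, 404 and 428 normalized counts in Ctrl, 708, 676 and 639 in LPS, 954, 939 and 935 in Aβ and 1042, 998 and 1031 in Aβ+LPS. The 4 groups rose in order without overlap, with log2 fold changes of 0.77, SE 0.067, adjusted p = 4.5e-09 and 1.25, SE 0.067, adjusted p = 3e-13 over Ctrl, while the step from Aβ to Aβ+LPS, 0.12, did not pass the test (adjusted p = 0.87). Mthfd2, a mitochondrial folate enzyme, had 1043, 1097 and 1004 normalized counts in Ctrl, 1602, 1463 and 1489 in LPS, 2059, 2089.9 and 1999 in Aβ and 2105, 1987 and 2046 in Aβ+LPS. It stepped up from Ctrl to LPS to the groups with Aβ, with log2 fold changes of 0.53, SE 0.051, adjusted p = 1.5e-08 and 0.97, SE 0.051, adjusted p = 1.8e-13.

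The genes of serine and glycine synthesis behaved differently. Phgdh, the first enzyme of serine synthesis, had 173, 185 and 163 normalized counts in Ctrl, 297, 244 and 284 in LPS, 149, 188 and 141 in Aβ and 165, 148 and 204 in Aβ+LPS. LPS was above all other libraries, with a log2 fold change of 0.66, SE 0.13, adjusted p = 0.00033, and Aβ overlapped Ctrl (−0.13, adjusted p = 0.38). Shmt2, which turns serine into glycine in mitochondria, had 548, 576 and 583 normalized counts in Ctrl, 597, 634 and 536 in LPS, 372, 397 and 358 in Aβ and 427, 363 and 420.4 in Aβ+LPS. Both groups with Aβ lay under Ctrl and LPS without overlap, with a log2 fold change of −0.60, SE 0.081, adjusted p = 1.1e-06 in Aβ vs. Ctrl, while LPS overlapped Ctrl (0.047, adjusted p = 0.67). Psat1, the transaminase that follows Phgdh in that route, had 1522, 1549 and 1572 normalized counts in Ctrl, 1443, 1446 and 1246 in LPS, 1436, 1445 and 1493 in Aβ and 1572, 1451 and 1468 in Aβ+LPS. All Ctrl libraries were above those of LPS (−0.17, SE 0.057, adjusted p = 0.018) and of Aβ (−0.086, adjusted p = 0.18). The call with LPS was lost without Ctrl replicate 3 (adjusted p = 0.057), without LPS replicate 3 (0.14), with only the compared groups in the fit (0.054) and with total count scaling (0.44). Phgdh has 15 annotated genes with at least 95% identity over at least 100 bases, nearly all pseudogenes, none above 2.04 normalized counts, and how reads shared with them were counted is not given in the sources used here.

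Set beside each other by medians over genes, chaperones and amino acid supply parted with LPS and less so with Aβ. For each library, the median over the genes of a role was taken after subtracting the Ctrl mean of each gene on the log2 scale. For the 14 chaperones it ran from −0.050 to 0.033 in Ctrl, −0.38 to −0.30 in LPS, −0.28 to −0.24 in Aβ and −0.33 to −0.24 in Aβ+LPS. For the 5 genes of amino acid supply it ran from −0.024 to 0.031, from 0.48 to 0.61, from −0.11 to 0.12 and from −0.093 to 0.23. Their difference was −0.036 to 0.080 in Ctrl, 0.81 to 0.97 in LPS, 0.13 to 0.39 in Aβ and 0.22 to 0.47 in Aβ+LPS, so that all 9 treated libraries were above all 3 of Ctrl and those of LPS above those with Aβ. The 5 feedback genes include Vldlr, which was under the filter in Ctrl and entered through the groups where it is higher. Their difference from the chaperones was −0.088 to 0.17 in Ctrl, 1.53 to 1.98 in LPS, 2.39 to 2.64 in Aβ and 2.65 to 2.66 in Aβ+LPS. These medians are a description of small lists and carry no test. A median of 5 genes also hides what single genes did, since with Aβ it lay between Asns and Mthfd2, which rose, and Shmt2, which fell. Summed in CPM, amino acid supply stood at 132 to 138 in Ctrl and 164 to 182 in LPS. It was higher in the groups with Aβ, at 190 to 195 in Aβ and 193 to 204 in Aβ+LPS. Chaperones summed to 5649.5 to 5964 in Ctrl and 4734 to 4970 in LPS. They stood at 5071 to 5133 in Aβ and 4971 to 5147 in Aβ+LPS. The order of LPS and Aβ for amino acid supply thus depends on the summary used.

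**Figure D4:**
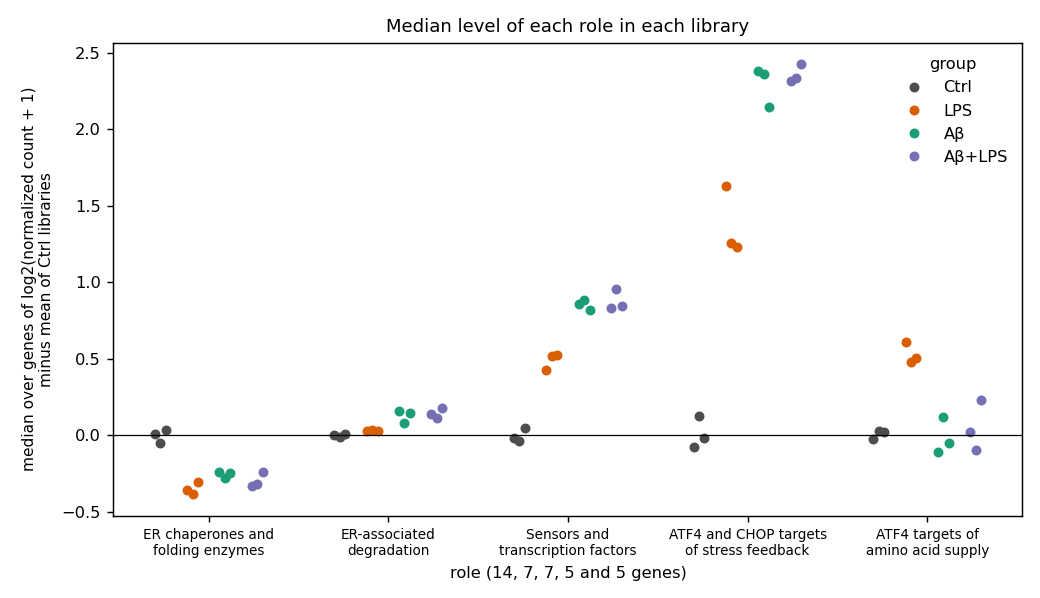
Median over the genes of each role of log2(normalized count + 1) minus the mean of the Ctrl libraries (vertical axis), with 1 point per library, coloured by group. Feedback genes reach 2.14 to 2.43 in libraries with Aβ, chaperones are under 0 in all 9 treated libraries, and the genes of amino acid supply are at 0.48 to 0.61 in LPS but between −0.11 and 0.23 in the groups with Aβ. The feedback genes include Vldlr and the degradation genes Derl3, both under the filter in Ctrl.

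With Aβ and LPS together, 4 of 7 sensors and factors, 4 of 5 feedback genes and 7 of 14 chaperones were higher than with LPS alone. Called either way were 71.4, 80 and 57.1% of these roles, beside 56.1% of all genes tested. For ER-associated degradation and amino acid supply the shares were 71.4 and 80%. Of the 14 chaperones, 1 fell in Aβ+LPS vs. LPS, and the median was 0.099. Those that rose were Creld2 (0.33), Hyou1 (0.31), Dnajb9 (0.30), Pdia4 (0.24), Hspa5 (0.23), Dnajb11 (0.13) and Calr (0.12), and Sdf2l1 fell (−0.42). Hsp90b1, at −0.11, did not pass the test (adjusted p = 0.076) but was called lower without LPS replicate 2 (−0.16, adjusted p = 0.010), without Aβ+LPS replicate 3 (−0.15, 0.0345) and with total count scaling (−0.13, 0.020). The calls of Dnajb11 and Calr were each lost without LPS replicate 1 (adjusted p = 0.078 and 0.073), that of Dnajb11 also without Aβ+LPS replicate 1 (0.080) and that of Calr without Aβ+LPS replicate 3 (0.11).

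In ER-associated degradation 5 of 7 rose in that comparison, led by Herpud1 (0.55) and Derl2 (0.34), with Edem1, Sel1l and Derl1 at 0.18, 0.13 and 0.13. The call of Derl1 was lost without LPS replicate 1 (adjusted p = 0.051). Of the sensors and factors, Atf5 (0.77), Atf4 (0.50), Ern1 (0.33) and Xbp1 (0.18) rose and Ddit3 fell (−0.18, SE 0.049, adjusted p = 0.0032). The call of Xbp1, whose libraries overlapped, was lost without LPS replicate 1 (adjusted p = 0.079) and without Aβ+LPS replicate 3 (0.054). Of the feedback genes, Ddit4 (2.07), Trib3 (0.95), Chac1 (0.93) and Ppp1r15a (0.28) rose, and Vldlr did not pass the test (−0.00079). Among genes of amino acid supply, Asns (0.60) and Mthfd2 (0.43) rose, Phgdh (−0.68) and Shmt2 (−0.55) fell, and Psat1 (0.12) did not pass the test (adjusted p = 0.073) except without LPS replicate 1 (0.044) or without LPS replicate 2 (0.030).

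The effect of Aβ differed between cells without and with LPS for 25 of 38 members by the interaction term, (Aβ+LPS − LPS) − (Aβ − Ctrl), beside 31.7% of all genes tested. The term was positive for 12 and negative for 13, or 12 and 12 of 36 without Derl3 and Vldlr. It uses all 4 groups, and since Aβ+LPS and Aβ were close, its values mirror LPS vs. Ctrl with opposite sign. Of the 14 chaperones, 9 were positive, from 0.21 for Dnajb11 to 0.55 for Sdf2l1, and Hyou1 was negative (−0.17). The 4 feedback genes over the filter in Ctrl were negative, from −0.56 for Ppp1r15a to −1.54 for Chac1. Ddit3 had the largest size of any member, −1.93, SE 0.069, adjusted p = 2.8e-15, being high with LPS, with Aβ and with both. With total count scaling the split of all called genes went from 47.8 to 26.5% positive, the median of all genes from −0.0087 to −0.13, and members were 9 positive and 14 negative.

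Other genes of the same pathways, listed from general knowledge, moved with the members in part. Of 52 other genes of ER folding, entry and degradation, 8 rose and 23 fell with LPS, 22 rose and 13 fell with Aβ, and 26 rose and 4 fell in Aβ+LPS vs. LPS, with medians of −0.090, 0.037 and 0.12. Called were 59.6, 67.3 and 57.7% of the 52, beside 46.3, 68.8 and 56.1% of all genes tested. Ero1l, the oxidase that renews disulfide bonds in the ER, rose from a mean of 1731 normalized counts in Ctrl to 2697 in LPS and 8810.3 in Aβ (0.64 and 2.35 on the log2 scale). Dnajc1, an ER membrane J protein, rose by 0.58 with LPS and to a mean of 6614 normalized counts with Aβ, from 1544 in Ctrl. Fkbp11, a prolyl isomerase of the ER, rose with LPS (0.75), and Fkbp14, another, with Aβ (1.12). Fkbp2, a further prolyl isomerase, fell with both (−0.61 and −0.61), as did Ssr4, a protein of the translocon (−0.57 and −0.51). Ostc, of the oligosaccharyltransferase, fell with LPS (−0.40), and Vcp, the ATPase that pulls proteins from the ER, with Aβ (−0.54). In Aβ+LPS vs. LPS, Ero1l, Dnajc1 and the disulfide reductase Dnajc10 rose furthest (1.78, 1.62 and 0.85), and Fkbp11, Stt3a (the catalytic subunit of the oligosaccharyltransferase) and Vcp fell (−0.39, −0.22 and −0.16).

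Of 22 other sensors, kinases and regulators, 8 rose and 2 fell with LPS, 11 rose and 6 fell with Aβ, and 9 rose and 4 fell in Aβ+LPS vs. LPS. Called were 45.45, 77.3 and 59.1% of the 22, beside 46.3, 68.8 and 56.1% of all genes tested. Nupr1, a stress-induced nuclear protein downstream of ATF4, rose from a mean of 134 normalized counts in Ctrl to 327 in LPS and 1375 in Aβ (1.28 and 3.36), and by 2.19 in Aβ+LPS vs. LPS. Wfs1, an ER membrane protein, and Eif2b2, a subunit of the exchange factor of eIF2, rose with LPS (0.55 and 0.44). Cebpb, a partner of ATF4 on the CARE, and Nfe2l1, an ER-bound factor, rose with Aβ (1.22 and 0.99). Eif2ak2, an eIF2α kinase that senses double-stranded RNA, fell with LPS (−0.27), and Mbtps1, a protease that cleaves ATF6, fell with LPS and with Aβ (−0.25 and −0.28). Creb3, an ER-bound factor, and Eif2b1 fell with Aβ (−0.31 and −0.38). In Aβ+LPS vs. LPS, Nfe2l1 and Cebpb rose (0.71 and 0.67) and Creb3l1, Eif2b1 and Creb3 fell (−0.32, −0.24 and −0.22).

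Of 37 other ATF4 targets 33 were tested, all but Pycr1, Cth, Cbs and Fgf21. With LPS 22 rose and 1 fell, with Aβ 24 rose and 4 fell, and in Aβ+LPS vs. LPS 14 rose and 4 fell, with medians of 0.29, 0.38 and 0.10. Called were 69.7, 84.85 and 54.55% of the 33, beside 46.3, 68.8 and 56.1% of all genes tested. The counts that rose include Stc2 in each comparison and Aldh1l2 in Aβ vs. Ctrl and Aβ+LPS vs. LPS. Both were under the filter in Ctrl (means of 0.34 and 9.28 normalized counts) and passed through groups where they are higher, so that a difference was built into their entry. Slc7a11, the cystine importer, went from a mean of 5377 normalized counts in Ctrl to 13224 in LPS and 33488 in Aβ (1.29 and 2.64), and by 1.41 in Aβ+LPS vs. LPS. Gpt2, an alanine transaminase, rose by 0.66 and 1.35 over Ctrl and by 0.78 over LPS, and Slc6a9, a glycine transporter, rose with Aβ (3.65) and over LPS (1.11). Gdf15, a stress-induced cytokine, rose with LPS (1.11), fell with Aβ (−1.32) and fell in Aβ+LPS vs. LPS (−2.62). Mthfd1l, another mitochondrial folate enzyme, fell with LPS and with Aβ (−0.43 and −0.32). Iars, a tRNA synthetase, fell with Aβ and in Aβ+LPS vs. LPS (−0.35 and −0.25), as did Nars in the latter (−0.12).

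Genes of cell division moved with the same groups. A list of 15 summed to 729 to 757 CPM in Ctrl, 671 to 679 in LPS, 116 to 117 in Aβ and 104 to 106 in Aβ+LPS, and all 15 fell with Aβ (median −3.04). In LPS vs. Ctrl, 9 of 15 fell, among them Ccnb2, Birc5 and Aurkb (−1.06, −0.78 and −0.72), and in Aβ vs. Ctrl Ccnb2, Cdc20 and Plk1 fell furthest (−3.91, −3.53 and −3.52). All 15 fell in Aβ+LPS vs. LPS, Cdc20, Ccna2 and Ccnb1 furthest (−3.52, −3.29 and −3.18). Among 10 macrophage markers, 6 fell and 2 rose with LPS and 8 fell and 2 rose with Aβ. Their sum was 3221 to 3294 CPM in Ctrl, 3069 to 3107 in LPS, 4518 to 4754 in Aβ and 4607 to 4727 in Aβ+LPS. The higher sum with Aβ came from the 2 that rose. Cd14 went from a mean of 4975 normalized counts in Ctrl to 61136 in Aβ, and Adgre1 from 21722 to 35063. Of the 8 that fell, Mrc1 went from 19517 to 762 and C1qb from 5199 to 174. Among 10 dendritic markers, 6 rose and 2 fell with LPS and 7 rose and 2 fell with Aβ, where Flt3 was under the filter in Ctrl and passed through groups where it is higher. Of all genes tested, 46.3 and 68.8% were called in these 2 comparisons. Sums of 7 stromal markers ran from 0.885 to 1.24 CPM in Ctrl to 44.2 to 52.6 in Aβ+LPS, nearly all from Dcn, with Col1a2 at a mean of 0 in Ctrl. Neutrophil, mast cell, T and NK cell and erythroid lists stayed under 16 CPM in every library, and of the erythroid list Hba-a1, Hba-a2, Hbb-bs and Alas2 were at 0 throughout. The part of growth and of cell mixture in the members' values was not tested.

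Several members share exon bases with a gene on the other strand, among them Atf5 (82 bases with Il4i1 and with Nup62), Ddit3 (68 with Mars), Derl2 (231 with Mis12), Manf (146 with Dcaf1) and Syvn1 (91 with Mrpl49). The highest library of these neighbours held 1297, 1557, 1077, 1611, 626 and 783 normalized counts. The library kit keeps the strand, but the strand setting of the counting is not given in the sources used here. Manf also shares 14 exon bases with Rbm15b on the same strand, whose highest library held 629 normalized counts. Derl2 matches Pqlc1, whose highest library held 1667.5, at 95.2% identity over 104 bases.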

How the data were processed

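Libraries of stranded mRNA were sequenced by the authors in single reads. The submitters' notes name FastQC 0.11.5, HISAT2 2.1.0, GRCm38, featureCounts 1.6.0, DESeq2 and R 3.4.4. The authors deposited 1 expression signal per gene and library, the gene count over a size factor. The authors' own fold changes and p-values stand in the same tables and were not used. Whole reads were recovered from the values with 1 step per library (tolerance 0.05 of a read). Genes were matched by symbol, and coordinates come from GENCODE vM21 by gene ID, which held 99.8% of IDs.

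In R 4.3.3, limma 3.58.1 (intensity trend) took log2(normalized count + 1) of the 12 libraries, with group as the only term (8 residual degrees of freedom, two-sided, Benjamini-Hochberg adjustment over 14324 genes, threshold 0.05). The fitting script was tested on simulated counts with known changes, from which no printed value comes. Alternatives were pseudocounts of 0.5 and 5, no filter and a minimum of 50, TMM and total count scaling, edgeR 4.0.16 and DESeq2 1.42.0 on recovered reads, a replicate block, only the compared groups, and each library left out. Members and lists were chosen with earlier results of these data known. Every member is named. Values in every library are given for Hspa5, Hsp90b1, Calr, Canx, the factors and sensors, the genes of amino acid supply and the 3 largest changes per role and comparison with Ctrl, and at most 3 genes per direction and comparison of each other list (mean of at least 100) are named. Summaries and figures were made in Python 3.11.15 with Matplotlib 3.10.9 and pandas 2.3.3.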

Additional observations from a re-analysis of the deposited data

Results flagged for a closer look

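For 25 of 38 members the effect of Aβ without LPS and with LPS differed by the interaction term of the limma fit. The threshold was an adjusted p under 0.05 over all 14324 genes, of which 31.7% were called. Each member is given here as that difference on the log2 scale. Positive differences were those of Hspa5 (0.34), Hsp90b1 (0.49), Dnajb11 (0.21), Dnajc3 (0.34), Sdf2l1 (0.55), Pdia3 (0.40), Pdia6 (0.50), Calr (0.45) and Canx (0.37) among the chaperones, Edem1 (0.33) in ER-associated degradation, and Atf6 (0.19) and Eif2ak3 (0.34) among the sensors. Of these, Hspa5, Dnajb11, Calr, Edem1 and Atf6 had an effect of Aβ that was negative without LPS (−0.11, −0.08, −0.33, −0.15 and −0.09). With LPS it was positive (0.23, 0.13, 0.12, 0.18 and 0.10). The values of Atf6 and the value of Dnajb11 without LPS did not pass the test on their own. Dnajc3, Pdia3 and Pdia6 also went from negative values (−0.32, −0.39 and −0.42) to slightly positive ones (0.020, 0.0047 and 0.075). The latter did not pass the test (adjusted p = 0.72, 0.93 and 0.13).

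Negative differences were those of Hyou1 (−0.17), Atf4 (−0.50), Atf5 (−0.97), Ern1 (−0.52), Ddit3 (−1.93), Trib3 (−1.36), Chac1 (−1.54), Ppp1r15a (−0.56), Ddit4 (−0.74), Vldlr (−1.69), Asns (−0.65), Phgdh (−0.55) and Mthfd2 (−0.54). Ddit3 went from 1.75 without LPS to −0.18 with it.

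The difference of Hyou1 was lost without any 1 of 8 libraries (−0.12 to −0.18, adjusted p = 0.052 to 0.12), all but Ctrl replicate 2, LPS replicate 2 and Aβ+LPS replicates 1 and 3. That of Phgdh was lost without Ctrl replicate 1 or 3, LPS replicate 1 or 3, Aβ replicate 2 or Aβ+LPS replicate 1 or 2 (−0.54 to −0.42, adjusted p = 0.0501 to 0.10). That of Atf6 was lost without Ctrl replicate 3, Aβ replicate 1 or Aβ+LPS replicate 3 (0.16 to 0.17, adjusted p = 0.062 to 0.073), and that of Eif2ak3 without Aβ replicate 2 (0.30, adjusted p = 0.054) or Aβ+LPS replicate 1 (0.27, 0.064). With total count scaling the differences of Dnajb11 (0.086, adjusted p = 0.30), Atf6 (0.068, 0.41) and Eif2ak3 (0.22, 0.12) were lost. Vldlr was under the filter in Ctrl and entered through the groups where it is higher.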

How the results depend on the processing

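Over 22 alternatives, 4048 of 4131 member results kept direction and side of the threshold, 53 lost the call, 29 gained it and 1 reversed. Leaving out 1 library at a time accounted for 37 of the losses and 14 of the gains. Called members ranged from 27 to 31 in LPS vs. Ctrl (30 as reported), 29 to 32 in Aβ vs. Ctrl (30), 23 to 28 in Aβ+LPS vs. LPS (26), 22 to 28 in the interaction (25), and were 0 throughout in Aβ+LPS vs. Aβ. Total count scaling reversed Derl1 in LPS vs. Ctrl (0.10 on the log2 scale, adjusted p = 0.048) and moved the chaperone median to −0.23 for LPS and −0.17 for Aβ, both against Ctrl, and the median of amino acid supply to 0.65 in LPS vs. Ctrl. The median of ER-associated degradation in LPS vs. Ctrl, 0.026, ran from −0.0249 to 0.0282 with 1 library left out. With no filter, Hspa5 in Aβ vs. Ctrl and Hyou1, Phgdh and Vldlr in the interaction lost their calls (adjusted p = 0.0697, 0.0777, 0.0535 and 0.0615), and the cause was not tested.

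Replicate numbers are shared between groups in the labels, but deviations of same-numbered libraries correlated by −0.0861 to 0.0367 over 18 pairs, 0 of them over 0.1, so the numbers were not taken as pairs. With the replicate block 30, 30, 26, 0 and 25 called members became 30, 30, 27, 0 and 25, where the added call was Hsp90b1 in Aβ+LPS vs. LPS (−0.11, adjusted p = 0.031). A fit of only the compared groups gives no interaction. Whole reads were recovered for 100% of values, and edgeR on them called 6672, 9866, 8197, 30 and 4589 genes in LPS vs. Ctrl, Aβ vs. Ctrl, Aβ+LPS vs. LPS, Aβ+LPS vs. Aβ and the interaction, against 6630, 9855, 8034, 20 and 4546 by limma, where DESeq2 called 47 in Aβ+LPS vs. Aβ. Low counts limit Derl3, Vldlr and Chac1, and 3 libraries a group limit all values.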
